A study of Mus musculus with 4 samples.

Results

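The nuclear-encoded subunits of the mitochondrial respiratory chain and ATP synthase were examined in mouse LMTK- fibroblasts with and without overexpressed melanotransferrin. Members were chosen by gene symbol alone: every probe set that the platform annotation gives to exactly 1 gene named Ndufa, Ndufb, Ndufc, Ndufs or Ndufv with a number, Sdha to Sdhd, Uqcr, Cox4 to Cox8 or Atp5, leaving out Ndufa4l2. This gave 169 of 45037 non-control probe sets, for 84 of 18193 named genes. Of these, 71 probe sets of 33 genes belong to complex I, 15 of 8 genes to complex II, 16 of 8 to complex III, 36 of 18 to complex IV and 31 of 17 to complex V. The symbol rule also takes in 4 genes that are assembly factors and not subunits, Sdhaf1, Sdhaf2, Sdhaf3 and Sdhaf4, which are kept with complex II, and Cox7a2l, a factor of respiratory supercomplexes, kept with complex IV. Ndufa4, long counted with complex I, is counted with complex IV, where the protein is now placed.

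LMTK- is a mouse fibroblast line that lacks thymidine kinase. The melanotransferrin lines were MTf 4 and MTf 6, numbered clones with a stably transfected pCI-neo expression vector that holds the mouse melanotransferrin cDNA. They were set against 2 lines transfected with pCI-neo alone, vector 1 and vector 2. All 4 lines therefore carry the vector, and each was hybridised once to a whole-genome mouse expression array from Affymetrix. The origin of vector 1 and vector 2 as clones or cultures is not stated, and a p-value here reflects only how far the 4 samples spread, which may be technical. The study asks how transcripts differ when melanotransferrin, a membrane-anchored iron-binding protein of the transferrin family, is overexpressed.

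Complexes I to IV pass electrons from NADH and succinate to oxygen and, apart from complex II, pump protons across the inner mitochondrial membrane, and complex V uses that gradient to make ATP. Their subunits come from both genomes. Mitochondrial DNA encodes core proteins of every complex but the second. The nucleus encodes the other core proteins and nearly all the small supernumerary subunits, which are imported. Electron transfer runs largely through iron, held in iron-sulfur clusters and in heme, so the chain is a major consumer of cellular iron. The 13 mitochondrially encoded subunits were not analysed here.

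Many of these genes are known to share the activators NRF1 and GABP, the second an ETS family factor, so the 250 bases before the start of 6 member genes are shown as the sequences over which such factors could act. They are 1 gene per complex that has a match to either motif, chosen with the promoter table in view, and Cox7a1, a tissue form with widely spread signals. Sequences are from RefSeq, build GRCm38.p6, written 5′ to 3′ on the gene's strand, and capitals mark matches on either strand to the NRF1 motif (GCGCA, any 1 base, then GCGC) or the ETS motif (CCGGAAG). Ndufa8 lies at chr2:36049339-36049588 (minus strand), Sdhd at chr9:50603850-50604099 (minus strand), Uqcrh at chr4:116075071-116075320 (minus strand), Cox6a1 at chr5:115348959-115349208 (minus strand), Cox7a1 at chr7:30183921-30184170 (plus strand) and Atp5h at chr11:115419920-115420169 (minus strand).

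Ndufa8: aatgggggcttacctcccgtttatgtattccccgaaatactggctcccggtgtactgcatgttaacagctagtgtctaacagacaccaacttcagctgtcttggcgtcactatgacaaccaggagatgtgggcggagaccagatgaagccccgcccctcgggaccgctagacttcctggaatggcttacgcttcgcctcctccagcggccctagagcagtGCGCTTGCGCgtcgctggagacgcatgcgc
Sdhd: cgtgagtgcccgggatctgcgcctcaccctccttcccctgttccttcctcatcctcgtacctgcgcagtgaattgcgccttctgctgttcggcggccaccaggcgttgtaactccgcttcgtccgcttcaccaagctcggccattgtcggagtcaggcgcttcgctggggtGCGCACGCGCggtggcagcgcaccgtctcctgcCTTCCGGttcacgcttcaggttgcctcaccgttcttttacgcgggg
Uqcrh: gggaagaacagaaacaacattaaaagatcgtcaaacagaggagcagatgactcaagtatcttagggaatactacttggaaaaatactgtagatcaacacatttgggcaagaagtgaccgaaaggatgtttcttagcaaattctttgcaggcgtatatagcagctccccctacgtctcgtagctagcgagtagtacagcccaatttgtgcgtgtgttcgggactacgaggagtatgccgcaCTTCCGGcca
Cox6a1: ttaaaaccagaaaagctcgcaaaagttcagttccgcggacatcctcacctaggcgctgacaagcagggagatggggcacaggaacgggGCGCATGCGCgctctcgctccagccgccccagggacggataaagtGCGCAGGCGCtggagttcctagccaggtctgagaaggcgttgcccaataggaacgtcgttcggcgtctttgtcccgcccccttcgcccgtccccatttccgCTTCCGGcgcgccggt
Cox7a1: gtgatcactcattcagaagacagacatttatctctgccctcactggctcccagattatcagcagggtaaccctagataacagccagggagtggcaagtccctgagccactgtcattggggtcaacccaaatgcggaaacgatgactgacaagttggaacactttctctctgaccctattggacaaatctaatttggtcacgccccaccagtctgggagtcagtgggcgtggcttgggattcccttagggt
Atp5h: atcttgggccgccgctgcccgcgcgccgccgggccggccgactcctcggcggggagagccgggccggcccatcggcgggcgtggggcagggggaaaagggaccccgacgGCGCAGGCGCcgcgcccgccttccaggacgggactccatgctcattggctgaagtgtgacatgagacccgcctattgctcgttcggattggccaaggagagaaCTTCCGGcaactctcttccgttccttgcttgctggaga

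The 250 bases shown for Cox6a1 hold 2 NRF1 matches and 1 ETS match, those for Sdhd and Atp5h hold 1 of each, those for Ndufa8 hold 1 NRF1 match and those for Uqcrh 1 ETS match 10 bases before the start. In Cox7a1, whose product is the heart and muscle form of its subunit, neither motif is found in these letters. Windows of 300 bases, which reach 50 bases past the start, were available for 70 of the 84 member genes, and 17 of the 70 (24.3%) held the NRF1 motif, against 5.19% of 27025 genes with such a window. The ETS motif was found in 20 of the 70 (28.6%), against 9.93% of all these genes, and the motif AAGATGGCG, bound by YY1, in 6 (8.57%), against 1.64%. For the letters of a cyclic AMP response element, TGACGTCA, the counts were 3 of 70 (4.29%) and 2.03% of all, and for TATAAA they were 9 of 70 (12.9%) and 15.7% of all. These are matches of letters, not shown binding sites, and the motifs do not overlap each other in the sequences printed.

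The array values are signals on a linear scale, with the same trimmed mean, about 1000, on every array as deposited. Median signals lay between 209 and 214, while upper quartiles were 1025 (MTf 4) and 944 (MTf 6) against 971 (vector 1) and 997 (vector 2), the same order of lines as the members' median deviations. Here they were compared as log2(signal + 32). The dimmer 50% of probe sets, those averaging under a signal of about 196, were not tested. This left 152 of the 169 member probe sets, for 79 of 84 genes, among 22519 probe sets tested. Meltf, the gene of melanotransferrin, was at 1518.5 (MTf 4) and 1884.5 (MTf 6) against 265 (vector 1) and 274 (vector 2), a log2 difference of 2.52 (limma, adjusted p = 0.0903). Of 10 fibroblast markers 8 passed the filter, among them vimentin (Vim) and collagen (Col1a2), while Thy1 and Lum did not.

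No respiratory chain gene differed past the threshold between the clones and the vector lines, and the measured differences were small. Of 152 member probe sets, 0 were called by limma at an adjusted p under 0.05, where 0.00444% of all tested probe sets were called, and 1 had an unadjusted p under 0.05, where 1.9% of all did (1.04% with the clones higher, as in that member). Without a trend in limma's variance model, 0 member probe sets were called as well. The log2 difference, MTf minus vector, had a median of -0.0033 over the members and -0.0068 over all tested probe sets, and 73 members were higher and 79 lower. It lay within 0.25 of 0 in 138 members (90.8%), where 72% of all tested probe sets did. Of the 11260 tested probe sets at or above the upper quartile of mean signal, 83.9% did. The clones and the vector lines did not overlap in 21 members (13.8%), where 25.8% of all tested probe sets did not overlap. The clones were above in 5 members (3.29%) and below in 16 (10.5%), where the shares over all tested probe sets were 12.2% and 13.6%. Of the 16, 7 had a mean signal under 1000. With 1 probe set per gene the clones were above in 3 genes (3.8%) and below in 3 (3.8%). Over all 10682 tested genes, taken the same way, these shares were 11.7% and 12.7%.

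The precision of these differences is set by 2 arrays per group. The 95% interval of a member's difference reached a median of 0.44 (log2) to either side, so changes of that size in single genes could not be shown or set aside. A call asked for more than an interval clear of 0, because p-values were adjusted over 22519 probe sets. Meltf itself, at a difference of 2.52, was not called (limma, adjusted p = 0.0903). The 0 calls therefore do not exclude changes larger than 0.44 in single genes. Taking 1 probe set per gene, that with the highest mean, the 79 genes had differences from -0.27 to 0.24, with 34 higher and 45 lower. The median over the members rested on both clones, which lay on opposite sides of the vector lines: it was 0.13 without MTf 6 and -0.15 without MTf 4.

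**Figure D1:**
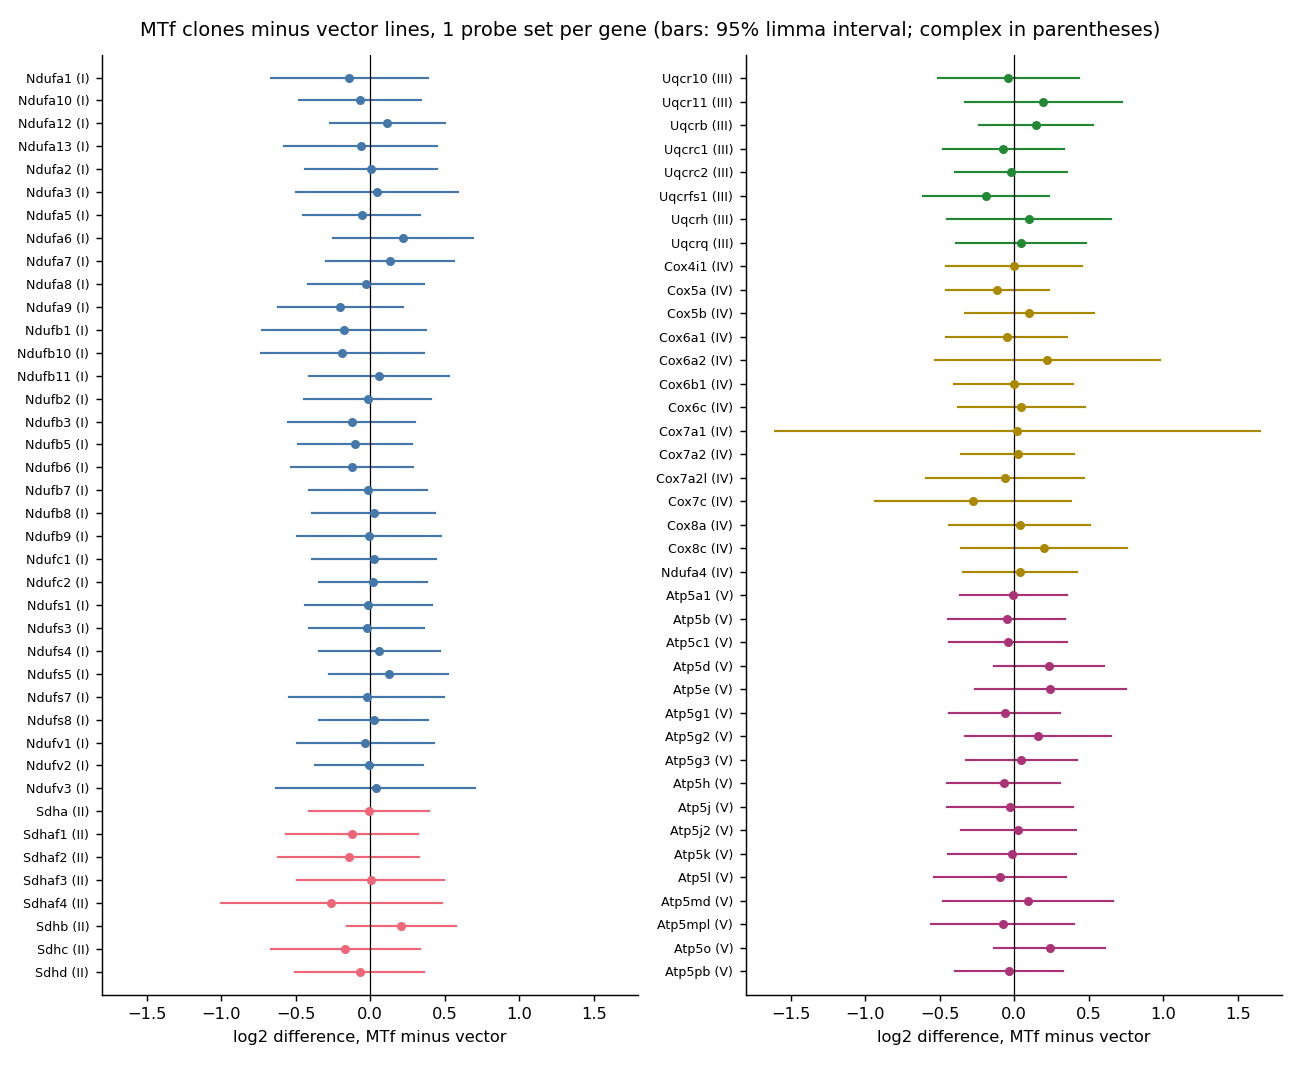
Log2 difference, MTf clones minus vector lines, of 79 genes by the probe set with the highest mean; points are limma estimates (2 arrays per group) and bars their 95% intervals, coloured by complex. All 79 intervals include 0, and all but Sdhaf4 and Cox7c lie within 0.25 of 0.

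Between the clones themselves the respiratory chain differed in a shared direction. Of the 152 member probe sets, 128 (84.2%) were higher in MTf 4 than in MTf 6, where 54.4% of all tested probe sets were, and 51.1% of the 11260 brighter ones, those at or above the upper quartile of mean signal, were. The log2 difference, MTf 4 minus MTf 6, had a median of 0.28 over the members, a 1.22-fold difference, and of 0.05 over all tested probe sets. MTf 4 was the highest of the 4 arrays in 97 members (63.8%), where 30.4% of all tested probe sets and 30.1% of the brighter ones had it highest. MTf 6 was the lowest in 100 (65.8%), where 29.3% of all and 27.2% of the brighter ones did. Both held at once in 74 members (48.7%), where 13.2% of all tested probe sets showed this. After quantile normalization, which gives the 4 arrays equal quartiles, 84.2% of members were higher in MTf 4 than in MTf 6, with a median difference of 0.30. Each clone was hybridised once, so the difference between them has no replicate check and no test.

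Measured from the mean of the 4 arrays, the members had median log2 deviations of 0.15 in MTf 4 and -0.14 in MTf 6, against -0.024 in vector 1 and 0.041 in vector 2. The vector lines thus stood between the clones. In 128 members the gap between the clones was larger than the difference between the group means (84.2%, against 69.5% of all tested probe sets). As a measure of RNA integrity, the 3′/5′ ratio of the Actb controls stood at 1.21 in MTf 4 and 1.31 in MTf 6, against 1.23 in vector 1 and 1.22 in vector 2, and that of Gapdh at 0.681 in MTf 4 and 0.669 in MTf 6, against 0.683 in vector 1 and 0.691 in vector 2. Summed signals of the 10 fibroblast markers were 272142 in MTf 4 and 218237 in MTf 6, against 202792 in vector 1 and 226918 in vector 2. Those of 5 macrophage markers were 2212 in MTf 4 and 1225 in MTf 6, against 1933 in vector 1 and 1516 in vector 2. Of these 5 markers 4 passed the filter, Adgre1, Cd68, Csf1r and Lyz2, and Ptprc, which marks white blood cells, did not. The epithelial markers summed to 980 in MTf 4 and 1369 in MTf 6, against 991 in vector 1 and 921 in vector 2, the endothelial ones to 562 and 655, against 650.0 and 552, and the melanocyte ones to 789 and 1020, against 751 and 1184, in the same order of lines. The part of RNA integrity or of these markers in the difference between the clones was not tested.

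**Figure D2:**
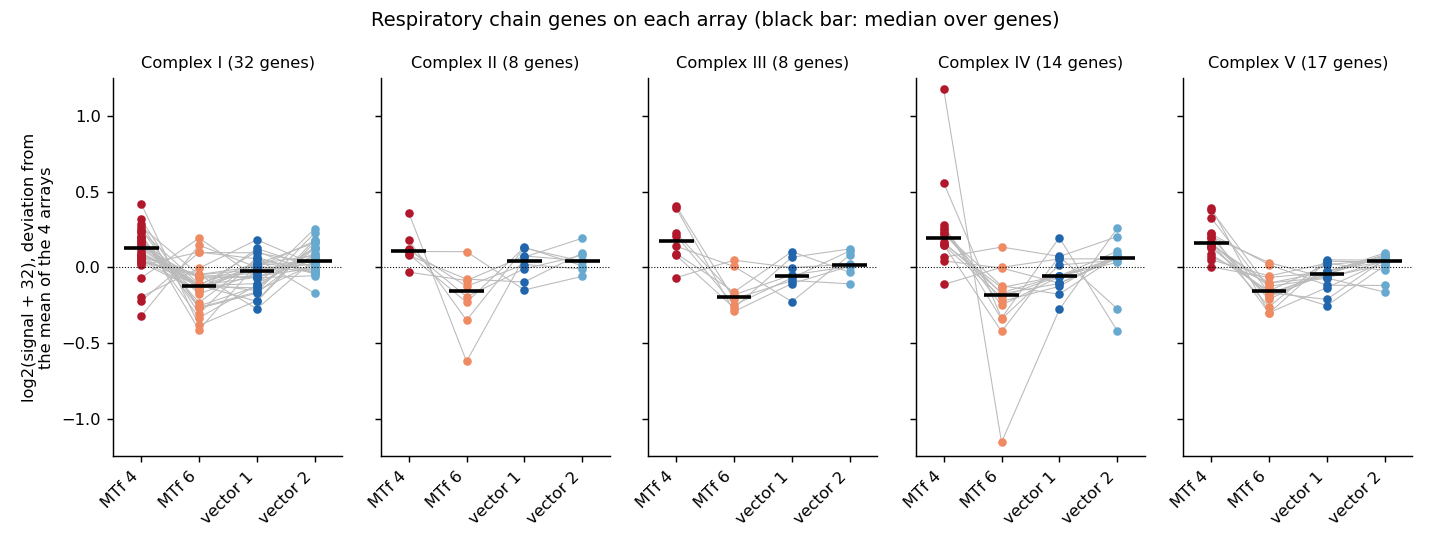
Deviation of log2(signal + 32) from the mean of the 4 arrays, 1 panel per complex; points are genes (1 probe set each), grey lines join a gene's values and black bars are medians over genes. In every complex the median is highest in MTf 4 and lowest in MTf 6.

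**Figure D3:**
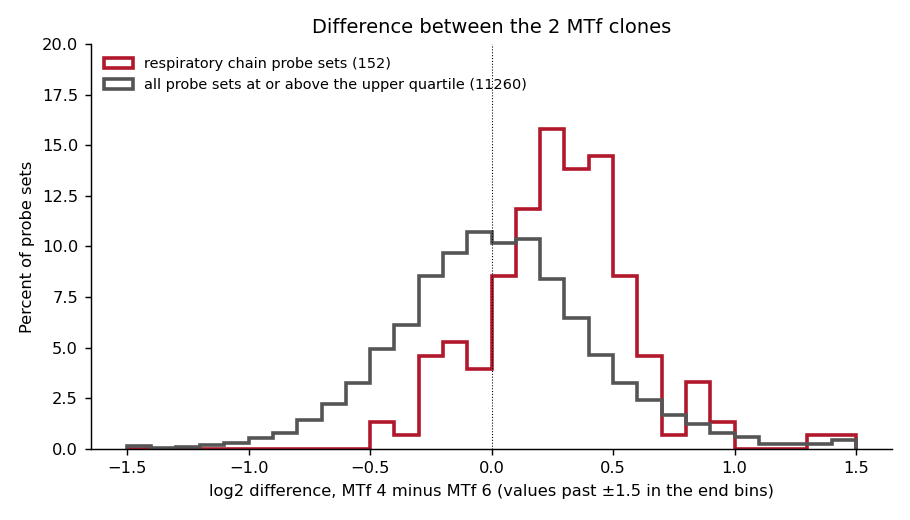
Percent of probe sets by log2 difference, MTf 4 minus MTf 6, in bins of 0.1, for the 152 tested respiratory chain probe sets and for all 11260 probe sets at or above the upper quartile of mean signal. The respiratory chain sits to the right of 0, with a median of 0.28 against 0.012.

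Complex I, the NADH dehydrogenase, had 67 tested probe sets for 32 genes. By 1 probe set per gene, 13 genes were higher and 19 lower in the clones than in the vector lines, with a median of -0.013, and 27 of the 32 were higher in MTf 4 than in MTf 6. Its catalytic core includes 6 measured nuclear subunits, and their group differences lay between -0.032 and 0.022. The grouping of subunits by role was made after the values were seen.

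Ndufv1, which binds the flavin that takes electrons from NADH, was at 13969 (MTf 4) and 10335 (MTf 6) against 12605 (vector 1) and 11975 (vector 2), and its log2 group difference was -0.032 (95% interval -0.49 to 0.43). The clones bracketed the vector lines. Ndufv2, an iron-sulfur subunit of the same module, was at 22349 (MTf 4) and 21014 (MTf 6) against 21541 (vector 1) and 22097 (vector 2), with all 4 lines within a narrow range. Ndufs1, a large subunit with several iron-sulfur clusters, was at 5333 (MTf 4) and 4602 (MTf 6) against 5088 (vector 1) and 4909 (vector 2) (difference -0.013, 95% interval -0.44 to 0.42). Ndufs7 and Ndufs8 carry the clusters that lead to ubiquinone. Ndufs7 was at 14968 (MTf 4) and 9930.2 (MTf 6) against 12868 (vector 1) and 11918 (vector 2), the widest gap between the clones among the core subunits by 1 probe set per gene, 0.59 on the log2 scale. Its other probe set, at 12583 (MTf 4) and 12308 (MTf 6), showed a gap of 0.032. For Ndufs8 the probe set with the highest mean was at 21804 (MTf 4) and 20097 (MTf 6) against 20873 (vector 1) and 20347 (vector 2). The 6 tested probe sets of Ndufs8 had group differences from -0.11 to 0.45, and the highest came from a dim one at 902 (MTf 4) and 811 (MTf 6) against 673 (vector 1) and 565 (vector 2), where the groups did not overlap (unadjusted p = 0.0927, adjusted p = 1.00 by limma). All 6 core genes, by 1 probe set per gene, were higher in MTf 4 than in MTf 6. Their median gap was 0.16, against 0.26 over the 26 accessory genes, a difference that was not tested.

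Among the accessory subunits, which surround the core, Ndufa9 and Ndufa6 had the smallest p by 1 probe set per gene. Ndufa6, an LYR-motif subunit of the matrix arm, was at 12749 (MTf 4) and 10222.5 (MTf 6) against 8741 (vector 1) and 10983 (vector 2), a difference of 0.22 (95% interval -0.25 to 0.69), and MTf 4 was highest and vector 1 lowest. Ndufa9, near the ubiquinone site, was at 6920 (MTf 4) and 7896 (MTf 6) against 8998.5 (vector 1) and 8024 (vector 2), a difference of -0.20 (95% interval -0.62 to 0.22), and here both clones lay below both vector lines. Neither passed the test (adjusted p = 1.00 for both, limma). Ndufc2, a membrane arm subunit, differed by 0.019 with its brightest probe set, at 36701 (MTf 4) and 33242 (MTf 6) against 33119.8 (vector 1) and 35891 (vector 2), and by -0.38 with a dim one at 395 (MTf 4) and 469 (MTf 6) against 479 (vector 1) and 676 (vector 2). Ndufb9, at 46871 (MTf 4) and 33034 (MTf 6) against 36098 (vector 1) and 43230.1 (vector 2), and Ndufa8, at 27586.5 (MTf 4) and 23839 (MTf 6) against 24739.6 (vector 1) and 27615 (vector 2), had group differences of -0.0056 and -0.028.

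By 1 probe set per gene, the widest gaps between the clones in complex I were in Ndufv3 and Ndufb10. Less bright probe sets of Ndufb2 and Ndufb11 had wider ones, 1.31 and 0.84. That of Ndufb2 was at 111 in MTf 6, under the filter level of about 196, so its gap rests on a signal not shown to exceed background. Ndufv3, a small subunit of the NADH module, was at 11376 (MTf 4) and 6499 (MTf 6), a gap of 0.80, and at 9647 (vector 2) and 7283 (vector 1), a gap of 0.40. MTf 4 and vector 2 were thus the higher lines of their groups. Ndufb10, a membrane arm subunit of the intermembrane face, was at 11255.5 (MTf 4) and 7205 (MTf 6) against 9759 (vector 1) and 10759 (vector 2), with MTf 6 well below the other 3 arrays. Between the vector lines, by 1 probe set per gene, the widest gap was again in Ndufv3, followed by Ndufb11, at 18428 (vector 2) and 14047 (vector 1). Dim probe sets of Ndufa10, Ndufb2, Ndufs4 and Ndufc2 had wider ones, -1.24, 0.91, -0.68 and 0.47. Those of Ndufa10, at 144 in vector 2, and Ndufb2, at 180 in vector 1, rest on a signal under the filter level. A second bright probe set of Ndufb11, at 18162 (vector 2) and 13352 (vector 1), also had a wider gap than Ndufv3, 0.44. By 1 probe set per gene, Ndufb1, Ndufb6, Ndufs5, Ndufa9 and Ndufa12 were the 5 genes of complex I lower in MTf 4 than in MTf 6. For Ndufa12 this order held for 1 of 4 tested probe sets, the brightest, with a gap of -0.086, and the other 3 had gaps of 0.13 to 0.44. Ndufb1 was at 1221 (MTf 4) and 1702 (MTf 6) against 1536 (vector 1) and 1736 (vector 2), with MTf 4 lowest, and Ndufs5 at 14743 (MTf 4) and 17700 (MTf 6) against 14747 (vector 1) and 14889.8 (vector 2), with MTf 6 highest.

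Complex II, the succinate dehydrogenase, is wholly nuclear-encoded and has 4 subunits, of which the iron-sulfur subunit Sdhb had both clones above both vector lines. Sdhb, which carries electrons from the flavin to ubiquinone, was at 21122.5 (MTf 4) and 21098 (MTf 6) against 17701 (vector 1) and 18838 (vector 2), or 21110.4 ± 17.1 (SD, n = 2) for MTf and 18269 ± 804 (SD, n = 2) for vector. The difference was 0.21 (SE 0.16, 95% interval -0.16 to 0.57), unadjusted p = 0.221 and adjusted p = 1.00 by limma, so it did not pass, although the groups did not overlap. Sdha, the flavoprotein that oxidises succinate, was at 12737 (MTf 4) and 10771 (MTf 6) against 11904 (vector 1) and 11665 (vector 2), a difference of -0.0087 with MTf 4 highest and MTf 6 lowest. A less bright probe set of Sdha had MTf 4 highest but vector 2 lowest, a difference of 0.06.

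Sdhc and Sdhd anchor the enzyme in the membrane and hold its heme. By the brighter probe set Sdhc was at 11414 (MTf 4) and 7894 (MTf 6) against 10998 (vector 1) and 10349 (vector 2), and by the other it was at 3223 (MTf 4) and 3859 (MTf 6) against 5323 (vector 1) and 4238 (vector 2). The second gave a difference of -0.43 (95% interval -0.91 to 0.058, unadjusted p = 0.0766, adjusted p = 1.00 by limma) with no overlap of the groups, and the first gave -0.17 with overlap. The 2 probe sets put the clones in opposite order, MTf 4 being above MTf 6 by the first and below it by the second. Sdhd was at 10104 (MTf 4) and 8101.5 (MTf 6) against 9213 (vector 1) and 9803 (vector 2) by its brighter probe set, a difference of -0.071, and differed by -0.40 by the other, at 1494 (MTf 4) and 853 (MTf 6) against 1739.7 (vector 1) and 1299 (vector 2). MTf 6 was the lowest line for Sdhd by both.

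The assembly factors of complex II differed little between the groups, Sdhaf4 most. Sdhaf4, which binds Sdha once it holds its flavin, was at 3066 (MTf 4) and 1534 (MTf 6) against 2495 (vector 1) and 2723 (vector 2), and the 3 other lines lay well above MTf 6. The gap between the clones was 0.98, and the group difference was -0.26 (95% interval -1.001 to 0.48). Sdhaf1, which helps to place the clusters of Sdhb, was at 2273 (MTf 4) and 2186 (MTf 6) against 2451 (vector 1) and 2396 (vector 2), a difference of -0.12. Sdhaf2, which attaches the flavin to Sdha, differed by -0.14 by its brighter probe set and by 0.11 by the other. MTf 4 was above MTf 6 by the brighter and just below it by the other, with gaps of 0.32 and -0.03. Sdhaf3 differed by 0.0024.

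Complex III, the cytochrome bc1 complex, had 15 tested probe sets for 8 genes, 4 of them higher and 4 lower in the clones. Uqcrfs1, the Rieske protein that holds its iron-sulfur cluster, was at 15647 (MTf 4) and 12285 (MTf 6) against 15514 (vector 1) and 16113 (vector 2), a difference of -0.19 (95% interval -0.61 to 0.24), with MTf 6 below the other lines. The core proteins Uqcrc1 and Uqcrc2 had differences of -0.071 and -0.02. Uqcrh, the hinge protein at the cytochrome c1 side, was at 27971 (MTf 4) and 17399 (MTf 6) against 19776 (vector 1) and 21418 (vector 2). Its other probe set was at 25207 (MTf 4) and 12785 (MTf 6) against 13869 (vector 1) and 13531 (vector 2), a difference of 0.39 (95% interval -0.30 to 1.08) that came from MTf 4 alone, since MTf 6 lay below both vector lines. Uqcr11, a small subunit, showed the same pattern at 16840.5 (MTf 4) and 10982 (MTf 6) against 11956 (vector 1) and 11779 (vector 2). Uqcr10, another small subunit, was at 18401 (MTf 4) and 13371 (MTf 6) against 15149.7 (vector 1) and 17138 (vector 2), a difference of -0.039. Uqcrb, which helps form the ubiquinone site, was at 81075 (MTf 4) and 73889 (MTf 6) against 62893 (vector 1) and 77847 (vector 2), with vector 1 lowest and a difference of 0.15. Its less bright probe set was at 17977 (MTf 4) and 13492.5 (MTf 6) against 15444 (vector 1) and 17509 (vector 2). By that probe set MTf 6 was lowest and the difference was -0.078. The 5 supernumerary genes, by 1 probe set per gene, were all higher in MTf 4 than in MTf 6, with a median gap of 0.46. A less bright probe set of Uqcr10 and 1 of Uqcrq had the reverse order, with gaps of -0.29 and -0.15. The remaining tested probe sets of these genes were higher in MTf 4.

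Uqcrq, the ubiquinone-binding small subunit, gave the only member probe set with an unadjusted p under 0.05. This probe set was at 479.7 (MTf 4) and 423 (MTf 6) against 230.4 (vector 1) and 204 (vector 2), or 451.5 ± 39.9 (SD, n = 2) for MTf and 217 ± 18.8 (SD, n = 2) for vector, and both clones lay above both vector lines. The difference was 0.96 (SE 0.29, 95% interval 0.28 to 1.63, unadjusted p = 0.0116, adjusted p = 1.00 by limma), which did not pass. The brightest probe set of Uqcrq was at 23326 (MTf 4) and 17584 (MTf 6) against 19263.5 (vector 1) and 20023.5 (vector 2), a difference of 0.044 (95% interval -0.39 to 0.48), and another was at 336 (MTf 4) and 376 (MTf 6) against 418 (vector 1) and 386 (vector 2), a difference of -0.16. The gene's probe sets thus did not give 1 answer, and which transcript forms they measure was not tested.

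Complex IV, the cytochrome c oxidase, is built on a mitochondrially encoded core with nuclear subunits around it, several of which exist as ubiquitous and tissue forms. Its 10 ubiquitous genes, Ndufa4 included, had differences from -0.27 to 0.10 by 1 probe set per gene, and 9 of the 10 were higher in MTf 4 than in MTf 6. Cox4i1, the ubiquitous subunit 4 that binds ATP, was at 57918 (MTf 4) and 41004.5 (MTf 6) against 46739 (vector 1) and 51063 (vector 2), a difference of -0.0035 (95% interval -0.46 to 0.45). MTf 4 was highest and MTf 6 lowest, with the vector lines between. Cox6c at 58595 (MTf 4) and 44438 (MTf 6) against 46625 (vector 1) and 52270.4 (vector 2) and Cox7a2 at 66152 (MTf 4) and 54070.1 (MTf 6) against 57007 (vector 1) and 60682 (vector 2) followed the same order by their brightest probe sets. The less bright probe set of Cox6c had vector 1 highest and MTf 6 lowest, a difference of -0.13. Cox5a was unlike Cox4i1, Cox6c and Cox7a2. By its brightest probe set both clones lay below both vector lines, at 39662 (MTf 4) and 42908 (MTf 6) against 44589.5 (vector 1) and 44623.5 (vector 2), a difference of -0.11 (95% interval -0.46 to 0.23). Cox7a2l, the supercomplex factor, was at 15233 (MTf 4) and 9899 (MTf 6) against 12691 (vector 1) and 12970.1 (vector 2), a gap of 0.62 between the clones, and MTf 4 was highest and MTf 6 lowest. Cox5b, the zinc-binding subunit, had 5 tested probe sets with differences from -0.24 to 0.10, and in 1 of them, at 18507 (MTf 4) and 19061 (MTf 6) against 21208 (vector 1) and 23329 (vector 2), the clones lay below the vector lines. Cox7c had a negative group difference by both of its dim probe sets. By the brighter it was at 624 (MTf 4) and 409 (MTf 6) against 589.6 (vector 1) and 649 (vector 2), a difference of -0.27 (95% interval -0.93 to 0.38). Here the groups overlapped, with MTf 6 lowest and MTf 4 above vector 1. The second probe set gave -0.43, with both clones below both vector lines.

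Of the 14 tested complex IV genes, 2 tissue forms, Cox7a1 and Cox6a2, had the widest gaps between the clones. Cox6a2, the heart and skeletal muscle form of subunit 6a, passed the filter in these fibroblasts and was at 14371 (MTf 4) and 7723 (MTf 6) against 11173 (vector 1) and 7284 (vector 2), or 11047 ± 4701 (SD, n = 2) for MTf and 9229 ± 2749 (SD, n = 2) for vector. MTf 4 and vector 1 were the higher lines, so the groups overlapped, and the group difference was 0.22 (95% interval -0.53 to 0.98). Its second probe set, at 2608 (MTf 4) and 1455 (MTf 6) against 1777 (vector 1) and 1482 (vector 2), put MTf 4 first and vector 1 second as well. Unlike most members, Cox6a2 was lower in vector 2 than in vector 1, with a log2 difference of -0.61. Of 4 muscle markers 2 passed the filter, Des and Ckm, while Myog and Myod1, factors that drive muscle fate, lay below it. Des was at 908 (MTf 4) and 582.5 (MTf 6) against 631 (vector 1) and 868 (vector 2). Ckm was at 247 (MTf 4) and 202.5 (MTf 6) against 392 (vector 1) and 255 (vector 2). The 4 signals summed to 1292 in MTf 4 and 979 in MTf 6, against 1302 in vector 1 and 1434 in vector 2.

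Cox7a1, the heart and muscle form of subunit 7a, was at 512 (MTf 4) and 75.8 (MTf 6) against 166 (vector 1) and 255.5 (vector 2), which spans the filter level. MTf 6 and vector 1 lay below that level and MTf 4 and vector 2 above it, so the gene passed through its higher lines. MTf 4 lay highest and MTf 6 lowest, and no fold is given because the signal in MTf 6 was not shown to exceed background. Gaps of at least 2-fold between the clones occurred in 2 of 152 member probe sets, of Cox7a1 and Ndufb2, where 4.77% of all tested probe sets had one. Between the vector lines they occurred in 1, of Ndufa10, where 3.34% of all had one. The probe sets of Ndufb2 and Ndufa10 concerned were dim ones, at 322 (MTf 4) and 111 (MTf 6) and at 144 (vector 2) and 383.5 (vector 1). In each of them the lower signal lay below the filter level.

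Cox8c, a testis form of subunit 8, was at 807 (MTf 4) and 847 (MTf 6) against 810.3 (vector 1) and 630.5 (vector 2), with vector 2 lowest. Cox4i2, Cox6b2, Cox7b2 and Cox8b, forms of lung, testis or muscle, lay below the filter with every probe set and were not tested, as was Ndufb4 with its own probe set. Cox4i2 was at 138 (MTf 4) and 162 (MTf 6) against 205 (vector 1) and 193 (vector 2), Cox6b2 at 38.1 (MTf 4) and 136.5 (MTf 6) against 104 (vector 1) and 24.8 (vector 2) and Cox8b at 32.6 (MTf 4) and 21.3 (MTf 6) against 38 (vector 1) and 69.5 (vector 2). Cox7b2, a testis form of subunit 7b, was at 127 (MTf 4) and 127 (MTf 6) against 19.6 (vector 1) and 25 (vector 2).

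**Figure D4:**
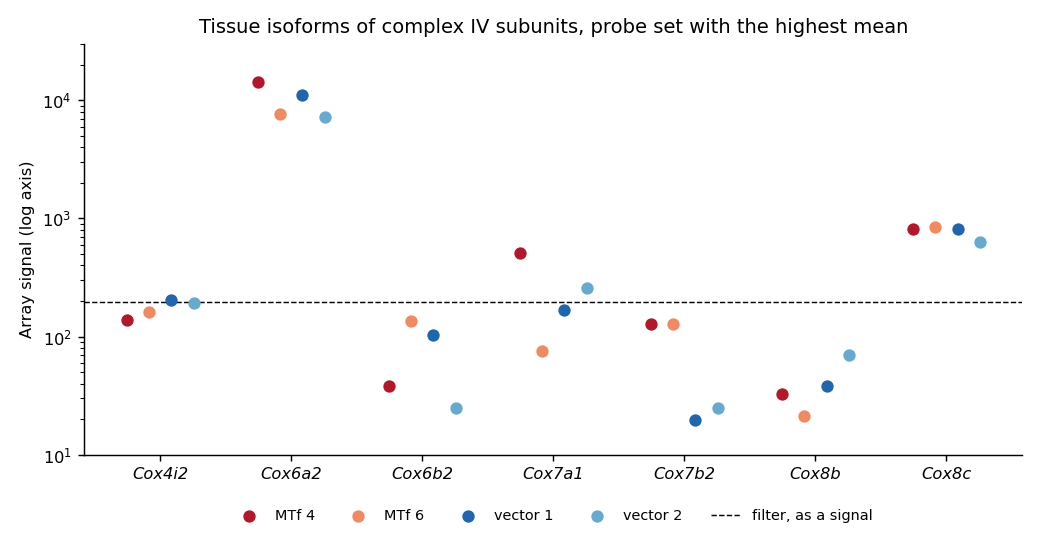
Array signal (log axis) of 7 tissue forms of complex IV subunits in each line, by the probe set with the highest mean; the dashed line is the filter, a signal of about 196. Levels are not comparable between genes; Cox7a1 is at 512 in MTf 4 and 75.8 in MTf 6, and Cox7b2 is the gene whose clones lie together above both vector lines.

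Complex V, the ATP synthase, had 28 tested probe sets for 17 genes, and by 1 probe set per gene all 17 genes were higher in MTf 4 than in MTf 6. MTf 4 was the highest line for 16 of them and MTf 6 the lowest for 13. The catalytic head is formed by the alpha and beta subunits, of Atp5a1 and Atp5b, around a stalk of the gamma, delta and epsilon subunits, of Atp5c1, Atp5d and Atp5e. Atp5b was at 58754 (MTf 4) and 46969 (MTf 6) against 52577.5 (vector 1) and 56306 (vector 2), a difference of -0.051 (95% interval -0.44 to 0.34). Atp5d was at 37476 (MTf 4) and 33284 (MTf 6) against 31011 (vector 1) and 29063 (vector 2), with both clones above both vector lines, a difference of 0.23 (95% interval -0.13 to 0.60, unadjusted p = 0.177, adjusted p = 1.00 by limma). Its second probe set gave 0.22, with the clones overlapping the vector lines. Atp5e was at 18981 (MTf 4) and 13301 (MTf 6) against 12257 (vector 1) and 14724 (vector 2), a difference of 0.24 (95% interval -0.26 to 0.75), the highest positive value of the 79 genes, with Cox7c and Sdhaf4 farther from 0 on the negative side.

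Atp5o, the peripheral stalk protein that holds the head still, was the other ATP synthase gene with the clones above the vector lines, at 31140.2 (MTf 4) and 27060 (MTf 6) against 24617 (vector 1) and 24596 (vector 2). Its difference of 0.24 (95% interval -0.13 to 0.61, unadjusted p = 0.177, adjusted p = 1.00 by limma) was not shared by its second probe set, at 7679.6 (MTf 4) and 7279 (MTf 6) against 10089 (vector 1) and 7398 (vector 2), which gave -0.21. Of the genes of the proton-carrying c subunit, Atp5g1, Atp5g2 and Atp5g3, differences were -0.064, 0.16 and 0.047. Atp5g2 was at 29987 (MTf 4) and 21273 (MTf 6) against 20631.5 (vector 1) and 24802 (vector 2), and Atp5g3 at 55588 (MTf 4) and 46634 (MTf 6) against 47866 (vector 1) and 50745 (vector 2), both with MTf 4 highest. Atp5g1 had a gap of 0.07 between the clones, and Atp5g2 of 0.49.

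The small membrane subunits, of Atp5j2, Atp5k, Atp5l, Atp5md and Atp5mpl, had a median gap of 0.42 between the clones, against 0.22 for the 4 peripheral stalk genes, a difference that was not tested. Atp5md, which helps join ATP synthase dimers, was at 14872 (MTf 4) and 9184 (MTf 6) against 10315.5 (vector 1) and 11649 (vector 2), and MTf 4 stood above the other 3 lines. Atp5mpl was at 23478 (MTf 4) and 16259.6 (MTf 6) against 20632 (vector 1) and 20584 (vector 2), with the vector lines level and the clones on either side. Atp5j2 differed by 0.029 by its brightest probe set, at 43752 (MTf 4) and 36055 (MTf 6) against 37437 (vector 1) and 40504 (vector 2), and by -0.52 by a dim one at 540.5 (MTf 4) and 382 (MTf 6) against 571 (vector 1) and 775 (vector 2). A dim probe set of Atp5c1, at 271 (MTf 4) and 199.5 (MTf 6) against 302 (vector 1) and 343 (vector 2), likewise had a difference of -0.42 while the bright one, at 39055 (MTf 4) and 31709 (MTf 6) against 34609.5 (vector 1) and 37868 (vector 2), gave -0.041.

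Dim probe sets held most of the larger differences. Of 18 member probe sets with a mean signal under 1000, 9 had a difference of 0.25 or more in size, against 5 of 134 with a mean signal of 1000 or more, and the median sizes were 0.26 and 0.06. Of 46 genes with several tested probe sets, 3 (Atp5j2, Ndufs8 and Uqcrq) had probe sets whose differences lay over 0.5 apart. A further 9 probe sets that the annotation gives to a member gene together with another gene, such as a close copy, were left out. Of these, the brighter of 2 probe sets shared by Ndufb4 and its copies was at 21609.7 (MTf 4) and 16599 (MTf 6) against 18775 (vector 1) and 19477 (vector 2), with MTf 4 highest and MTf 6 lowest.

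The order of the vector lines was less marked than that of the clones. Of the 152 member probe sets, 96 (63.2%) were higher in vector 2 than in vector 1, where 51.6% of all tested probe sets were, with a median log2 difference, vector 2 minus vector 1, of 0.055. Over the 79 genes this difference correlated with MTf 4 minus MTf 6 at a Pearson's r of 0.335, and over the 11260 brighter probe sets of the whole array at 0.489. These are descriptions across genes that share the same 4 arrays.

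**Figure D5:**
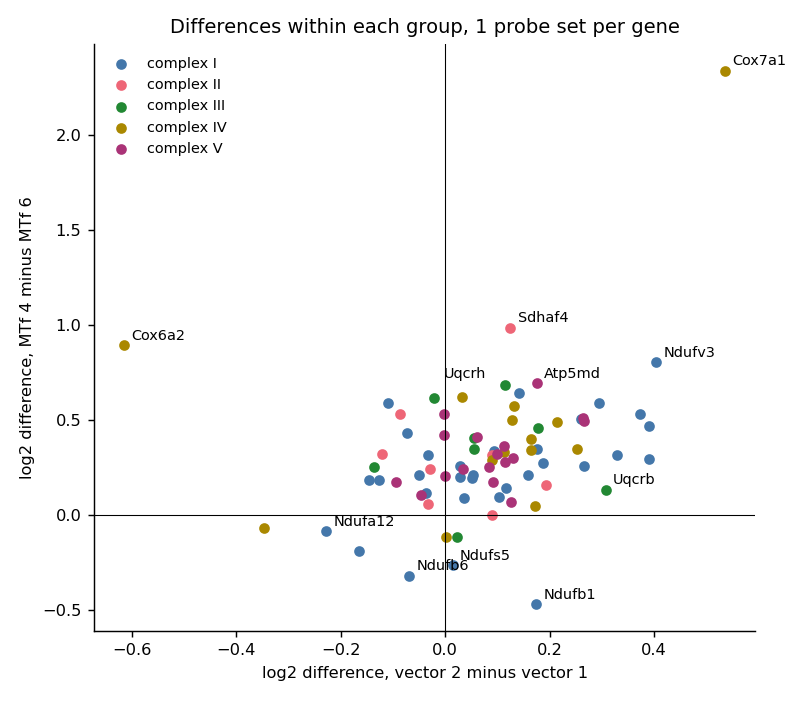
Each point is 1 of 79 genes (1 probe set each), coloured by complex, with the log2 difference vector 2 minus vector 1 across and MTf 4 minus MTf 6 up. Most genes (71 of 79) lie above the horizontal line, and Cox7a1, Cox6a2 and Sdhaf4 lie farthest from the rest.

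Members on chromosomes 4 and 10, the only 2 chromosomes summarised here, are described apart. The choice of these 2 was not set in advance, and no other chromosome was set beside them. The members on them are few genes, some with several probe sets, and the part of position in the order of the lines was not tested. On chromosome 10 lie Ndufa12, Ndufs7, Uqcr11, Atp5b and Atp5d, with 10 tested probe sets, of which 9 were lower in vector 2 than in vector 1. The 1 higher in vector 2 is 10% of these, where 21.3% of all tested probe sets of that chromosome were higher. The median deviation of these members in vector 2 was -0.17, against 0.043 for the other members and -0.25 for all 928 tested probe sets of that chromosome. On chromosome 4 lie Ndufb6, Ndufs5, Sdhb and Uqcrh, with 6 tested probe sets and a median deviation in MTf 6 of 0.10, against -0.14 for the other members and 0.21 for all 1154 of the chromosome. Chromosomes 4 and 10 were also higher in the clones as a whole, with median differences, MTf minus vector, of 0.13 and 0.15. Both clones lay above both vector lines in 23.3% of tested probe sets on chromosome 4 and 20.6% on chromosome 10, where 12.2% of all did. Sdhb (chromosome 4) and Atp5d (chromosome 10) are 2 of the 3 genes with this order by 1 probe set per gene, Atp5o being the other, and the part of the chromosomes in their values was not tested. Ndufb6 and Ndufs5, higher in MTf 6 than in MTf 4, and Sdhb, level between the clones, are among the members on chromosome 4, while Uqcrh was lower in MTf 6. Without the members of chromosome 4, 125 of 146 probe sets (85.6%) were higher in MTf 4 than in MTf 6.

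The 7 iron-sulfur subunits, Ndufs1, Ndufs7, Ndufs8, Ndufv1, Ndufv2, Sdhb and Uqcrfs1, were grouped because melanotransferrin binds iron. Of these 0 passed the test, 2 were higher and 5 lower in the clones, and the median difference was -0.013. All 7, by 1 probe set per gene, were higher in MTf 4 than in MTf 6, though Sdhb by only 0.0017. Of the subunits associated with heme, Sdhc, Sdhd and Cyc1, the gene of cytochrome c1, all 3 were lower in the clones and 0 passed. Cyc1 was at 19161 (MTf 4) and 19419 (MTf 6) against 21332 (vector 1) and 19872 (vector 2), a difference of -0.094 (95% interval -0.46 to 0.27), with both clones just below both vector lines. Cycs, cytochrome c, was at 53482 (MTf 4) and 51333.5 (MTf 6) against 54746 (vector 1) and 53595 (vector 2), a difference of -0.048 (95% interval -0.38 to 0.29).

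Other genes that build and feed the chain also showed 0 calls between the groups. Of 48 tested assembly factors for the complexes, the 4 Sdhaf genes included, 23 were higher in the clones and 25 lower, the median being -0.0046, and 1 had an unadjusted p under 0.05, where 1.9% of all tested probe sets did, a like share. That gene was Lyrm2, which assists complex I, at 2823 (MTf 4) and 2416 (MTf 6) against 1689.8 (vector 1) and 1781 (vector 2), with both clones above both vector lines, a difference of 0.58 (95% interval 0.11 to 1.05, unadjusted p = 0.0211, adjusted p = 1.00 by limma). Timmdc1, another complex I assembly factor, was at 877 (MTf 4) and 892 (MTf 6) against 1276 (vector 1) and 1058.5 (vector 2), a difference of -0.38. Uqcc3 and Uqcc1, of complex III assembly, differed by 0.37 and -0.21, and Atpaf1 and Tmem70, of complex V assembly, by 0.023 and -0.15. Coa8, of complex IV assembly, differed by 0.49 and Cox11, which delivers copper to complex IV, by -0.27. Of 14 regulators of respiratory gene transcription 7 were higher and 7 lower, with Tfb2m, which starts transcription of mitochondrial DNA, at 2607 (MTf 4) and 2211 (MTf 6) against 3629 (vector 1) and 2613 (vector 2), and Mterf1a, a mitochondrial termination factor, at a difference of -0.40. Of 12 tested citrate cycle enzymes 4 were higher and 8 lower, the median being -0.028, and Idh3a, the catalytic subunit of isocitrate dehydrogenase, was at 18345 (MTf 4) and 16777 (MTf 6) against 20196.5 (vector 1) and 20359 (vector 2). Suclg1, of succinyl-CoA ligase, differed by -0.21.

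The gap between the clones is given for the same groups as a description, and differences between the groups were not tested. Of the assembly factors 30 of 48 (62.5%) were higher in MTf 4 than in MTf 6, with a median gap of 0.12, against 71 of 79 member genes (89.9%), with a median of 0.30. Of the citrate cycle enzymes 10 of 12 were, with a median of 0.19, and of the transcription regulators 6 of 14, with a median of -0.10. The widest gap among the 14 regulators was that of Ppargc1a, the coactivator PGC-1alpha, which drives respiratory gene transcription, at 7778 (MTf 4) and 2886 (MTf 6) against 5063 (vector 1) and 5912 (vector 2). MTf 4 was highest and MTf 6 lowest, with a gap of 1.42, while its group difference was -0.21 (95% interval -1.16 to 0.75). The part of Ppargc1a in the members' gap between the clones was not tested. The next widest gap was that of Gabpb1, a GABP subunit, with MTf 6 above MTf 4, at 549 (MTf 4) and 1003 (MTf 6) against 1085 (vector 1) and 413 (vector 2). Among member genes with a promoter window and a tested probe set, the median gap was 0.25 over the 16 with the NRF1 motif and 0.32 over the 50 without, and 0.33 over the 20 with the ETS motif and 0.28 over the 46 without.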

How the data were processed

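Total RNA of 4 stably transfected LMTK- lines was measured on 1 Affymetrix array each. The authors deposited linear intensity values, which come from GCOS 1.3 per the submitters' processing notes. No settings of it are given there, and no detection calls entered. Every array had 1 common 2%-trimmed mean, and nothing further was scaled. Groups and numbers came from the labels. Probe sets were named from the platform annotation, which gives 34945 of 45037 non-control probe sets 1 gene, 932 several and leaves 9160 unnamed here; genes were placed on chromosomes with a gene table of GRCm38.p6, which held all 84 member genes. From these values log2(signal + 32) was computed, so folds understate changes of dim probe sets. Probe sets below the median of mean log2 values were left out, 64 control probe sets too, and 22519 were tested by linear models (limma 3.58.1, R 4.3.3) with a trend in the variance prior. The contrast was MTf minus vector, p-values were adjusted by Benjamini-Hochberg over all of these, and calls needed an adjusted p under 0.05. Intervals are 95% intervals of that fit. An exact permutation test (two-sided) of 2 arrays against 2 could not go below 0.333.

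The fit was tested on simulated data. Named genes were Meltf, the iron-sulfur, heme-associated and tissue-form subunits, and per complex the members with the smallest p, the brightest probe sets or the widest gap within a group, plus genes whose probe sets disagree and the leading genes of the other lists; further genes (Ndufb1, Ndufb6, Ndufs5, Ndufa12, Ndufa10, Ndufb2, Ndufb4, Cox5a, Cox7b2, Atp5g1, Ndufs4, Sdhaf1, Ppargc1a, Gabpb1, Cox7a2l, Cox6a1, Atp5h, Uqcrc1 and Uqcrc2) were named after their values were seen. Members and lists were chosen with earlier results of these data known. Settings tried were the offset, the filter, the normalization, the variance trend, 1 probe set per gene and leaving out each array.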

Additional observations from a re-analysis of the deposited data

Results flagged for a closer look

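Cox7b2 was outside every comparison because its mean lay below the filter, and both clones lay above both vector lines. Signals were 127 (MTf 4) and 127 (MTf 6) against 19.6 (vector 1) and 25 (vector 2), a ratio of 5.08 between the lower clone and the higher vector line. When no filter was used, its log2 difference was 1.55 with an adjusted p = 1.00 by limma. Whether such dim signals exceed background was not tested.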

How the results depend on the processing

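Over all tested probe sets 1 call was made, and it ended (0 calls) with no filter, with a filter at the upper quartile and without a trend in the variance model; the cause was not tested. There were 2 calls without vector 1, 6 without vector 2, 12 without MTf 6 and 25 without MTf 4, from fits in which a group holds 1 array that is assumed to vary like the other group. Member probe sets called were 0 under all 12 settings run. The median difference of the members, MTf minus vector, lay between -0.15 and 0.13 with 1 array left out and between -0.028 and 0.023 under the other settings, and took either sign. The percent of member probe sets higher in MTf 4 than in MTf 6, 84.2%, was 89.9% with 1 probe set per gene, and lay between 78.1% and 88.1% under the offsets, filters and normalizations tried; these settings were chosen after the data were seen. The median gap between the clones stayed between 0.27 and 0.30. Of 84 named member probe sets, 15 changed the sign of their difference in at least 1 of the processing settings, all of them within 0.05 of 0, and 62 did so with an array left out, where 0 were called and the lowest adjusted p was 0.313. No paired analysis was possible because the clones (4 and 6) and the vector lines (1 and 2) share no replicate number. The number of arrays, 2 per group, limits every value, and dim probe sets vary most.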
